A study of Homo sapiens with 8 samples.

Results

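The genes described here are 9 members of the VEGF, neuropilin and angiopoietin system: the VEGF ligands VEGFA, VEGFB, VEGFC and PGF, the neuropilin co-receptors NRP1 and NRP2, the angiopoietins ANGPT1 and ANGPT2, and the angiopoietin-like protein ANGPTL4. They were chosen by gene symbol among 17709 transcript clusters (probe groups that report 1 gene) with a symbol, and each of the 9 had 1 cluster. They were measured in 8 tumours that grew in nude mice after implantation of SK-OV-3, an established human ovarian cancer cell line. In 4 tumours the cells carried the pIND_BORA vector, which overexpresses BORA, an activator of the mitotic kinase pathway of Aurora A and PLK1. The other 4 came from cells with the pIND_EV empty vector. All tumours share the cell line and the nude mouse host, an animal without mature T cells that keeps its own vessels, macrophages and fibroblasts. The labels give no age, no inducer, no time of growth and no number of clones behind either line, nor do they state that each tumour had its own animal. The p-values thus rest on the spread between these samples alone, part or all of which may be technical.

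VEGF ligands are secreted dimers that bind receptor tyrosine kinases (FLT1, KDR and FLT4) on endothelial cells, and neuropilins hold these ligands and class 3 semaphorins at the cell surface as co-receptors. Angiopoietins bind the receptor TEK (TIE2): ANGPT1 is its activating ligand, and ANGPT2 acts against ANGPT1 in many settings and loosens vessels. ANGPTL4 resembles the angiopoietins in sequence but does not bind TEK, and is known as an inhibitor of lipoprotein lipase. VEGFA and ANGPTL4 are classical targets of the hypoxia-inducible factors, and ANGPTL4 is also a target of the PPAR nuclear receptors.

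BORA itself, the check of the labels, read 12.57, 12.55, 12.91 and 13.00 on the log2 scale in BORA replicates 1 to 4 and 6.16, 6.15, 6.89 and 7.32 in EV replicates 1 to 4. EV replicate 1 stood apart: at 132 clusters its value exceeded the next highest array by over 3 log2 units, which happened at 0 clusters in each of the other arrays. Pearson correlations over all clusters were 0.943 to 0.954 with this array and 0.981 to 0.992 among the remaining 7. The mean level of 6 squamous epithelium markers was 12.90 there, 4.41 to 5.09 in EV replicates 2 to 4 and 4.15 to 4.42 in BORA tumours. Comparisons are given over 8 arrays and, with EV replicate 1 left out, over 7. Differences are BORA minus EV in log2 units. A cluster counts as detected in an array when it exceeds the 95th percentile of that array's negative control probes, which lay between 7.62 and 8.24.

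No member passed limma's test at a Benjamini-Hochberg adjusted p of 0.05 over all clusters. Over 8 arrays 0 of 9 rose, where 0.102% of all clusters did, and 0 of 9 fell, where 0% did. Without EV replicate 1 again 0 of 9 rose or fell, where 0.435% of all clusters rose and 0.0791% fell. At an unadjusted limma p under 0.05, NRP2 was higher (7.37% of all clusters were) and ANGPT1 lower (7.17% were) over 8 arrays. Over 7 arrays PGF and NRP2 were higher (7.70% of all clusters were) and ANGPT1 lower (7.62% were). The values of BORA and EV tumours did not overlap for NRP2 (higher) and ANGPT1 (lower) over 8 arrays, where 4.45% of all clusters were higher and 4.91% lower without overlap. Over 7 arrays PGF joined NRP2 among the higher members, against 6.66% of all clusters, and ANGPT1 was again the 1 lower member, against 7.68%. The difference was above 0 for 7 of 9 members over 8 arrays, where 46.6% of all clusters were above 0, and for 6 of 9 over 7 arrays, where 46.1% were. All members but ANGPT1 were detected in at least 1 array. Of clusters so detected only 36.3% had a lower mean in BORA tumours over 8 arrays, against 69.1% of those detected in none. Most detected clusters were thus higher too, and 46.6% is a low background for the members. The median difference of the members was 0.98 and 0.25 in the 2 comparisons, beside -0.026 and -0.029 for all clusters. The shares of all clusters above are also the background for the counts and the genes without overlap given for the lists below.

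**Figure D1:**
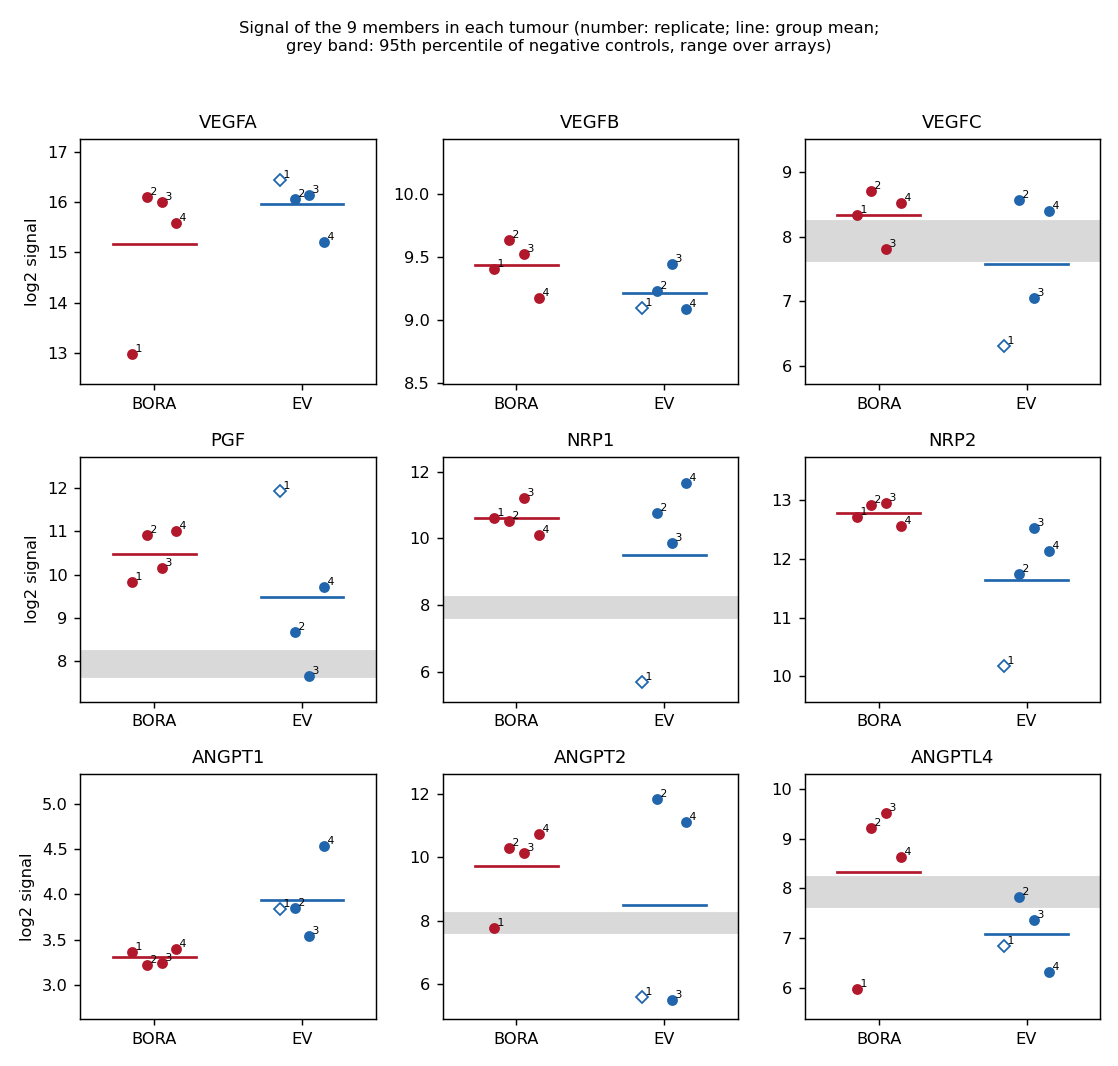
Log2 signal of each of the 9 members in the 4 BORA and 4 EV tumours, with each panel on its own scale; numbers are replicate numbers, lines are group means, the open diamond is EV replicate 1, and the grey band spans the 8 arrays' 95th percentiles of negative controls. NRP2 and ANGPT1 show no overlap between groups, EV replicate 1 is the lowest point for NRP1, NRP2 and VEGFC and the highest for PGF and VEGFA, and BORA replicate 1 is the lowest point for VEGFA and ANGPTL4.

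Among the VEGF ligands, VEGFA, the main driver of vessel growth and permeability, read 12.98, 16.10, 16.00 and 15.58 in BORA replicates 1 to 4. In EV replicates 1 to 4 it read 16.44, 16.06, 16.14 and 15.19. BORA replicate 1 lay far below the other 7 tumours, whose values overlapped between the groups. VEGFA thus had a mean of 15.16 ± 1.48 (SD, n = 4) in BORA and 15.96 ± 0.54 (SD, n = 4) in EV tumours, a difference of -0.80 with a 95% interval from -2.21 to 0.62 (limma adjusted p = 0.581). Without EV replicate 1 the difference was -0.63 (adjusted p = 0.674). Without BORA replicate 1 it was -0.066 over the remaining 7 arrays, and 0.096 with EV replicate 1 also left out.

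VEGFB, a ligand of FLT1 linked to heart muscle and fatty acid uptake, read 9.40, 9.64, 9.52 and 9.17 in BORA tumours and 9.10, 9.23, 9.44 and 9.09 in EV tumours. It was the steadiest member, with a range of 0.55 over the 8 arrays, and exceeded the negative controls in all of them. Its difference of 0.22 (95% interval -0.13 to 0.57, limma adjusted p = 0.536) did not pass.

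VEGFC, the lymphatic ligand that acts through FLT4, read 8.34, 8.71, 7.80 and 8.52 in BORA tumours and 6.31, 8.57, 7.05 and 8.39 in EV tumours. EV replicates 1 and 3 were the low arrays, both below the negative control percentile, and EV replicates 2 and 4 lay within the BORA range. The difference was 0.76 (SE 0.47, limma adjusted p = 0.484) over 8 arrays and 0.34 (SE 0.34, adjusted p = 0.685) without EV replicate 1. It turned to -0.14 without EV replicates 1 and 3.

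PGF, placental growth factor, a ligand of FLT1 that is low in most healthy adult tissue, read 9.83, 10.91, 10.15 and 11.01 in BORA tumours. The EV tumours read 11.93, 8.66, 7.66 and 9.71. EV replicate 1 was above every BORA tumour, whereas EV replicates 2 to 4 were below every BORA tumour, with EV replicate 3 under the negative control percentile. Over 8 arrays the difference was 0.98 (95% interval -0.74 to 2.70, limma adjusted p = 0.574). Without EV replicate 1 it was 1.79 (SE 0.43, 95% interval 0.85 to 2.74, adjusted p = 0.0985), a 3.47-fold higher signal that did not pass. PGF passed when EV replicate 4 was left out as well (2.31, adjusted p = 0.0189), and did not pass when any other further array was left out (1.28 to 2.01, adjusted p at least 0.102). Over 7 arrays it also passed with the replicate number as a block (2.01, adjusted p = 0.0216) and with array quality weights (1.92, adjusted p = 0.0499). The block leaves BORA replicate 1, the lowest BORA tumour for PGF, without a partner, so that fit takes nothing from it for the difference. With that tumour left out and no block, the difference was also 2.01 and did not pass (limma adjusted p = 0.102).

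**Figure D2:**
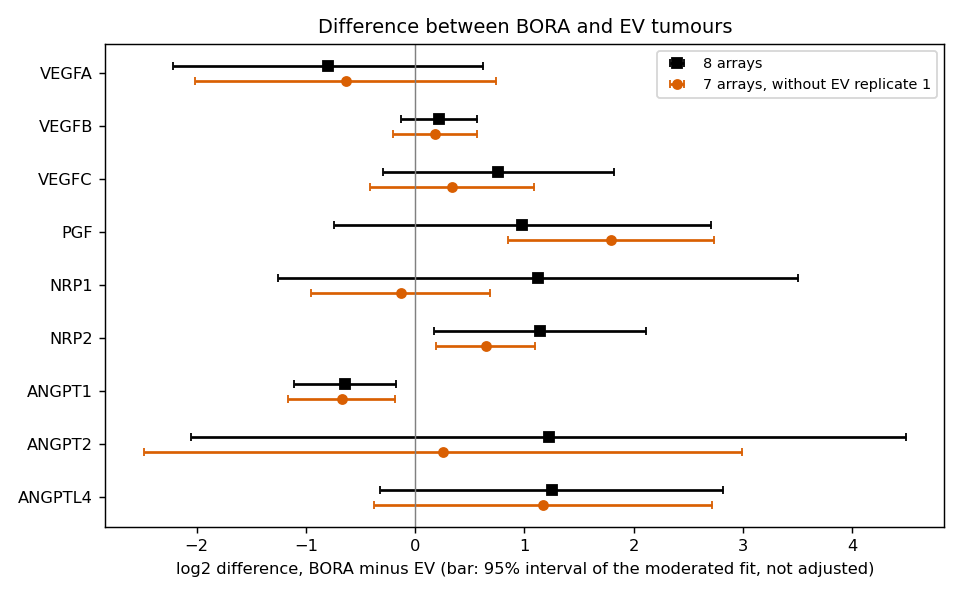
Difference between the BORA and EV group means for each member in log2 units; squares are the 8-array fit, circles the fit without EV replicate 1, and bars the 95% intervals of limma's moderated fit, not adjusted for the number of clusters. The interval for PGF excludes 0 over 7 arrays alone, those for NRP2 and ANGPT1 exclude 0 in both fits, and those of ANGPT2 and NRP1 are the widest over 8 arrays.

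Of the neuropilins, NRP2, the co-receptor for VEGFC and semaphorin 3F, read 12.71, 12.92, 12.95 and 12.56 in BORA tumours and 10.17, 11.75, 12.52 and 12.14 in EV tumours. All BORA tumours were above all EV tumours, but EV replicate 3 lay only just below BORA replicate 4. The means were 12.78 ± 0.18 and 11.64 ± 1.03 (SD, n = 4 each), a 2.20-fold higher signal (difference 1.14, SE 0.43, 95% interval 0.17 to 2.11, limma adjusted p = 0.293). Without EV replicate 1 the difference was 0.65 (SE 0.21, adjusted p = 0.180), or 1.57-fold. It kept its sign when each array was left out, from 1.08 to 1.43 without 1 of the other 7 arrays and from 0.45 to 0.84 without EV replicate 1 and 1 more. NRP2 did not pass under any of these.

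NRP1, the co-receptor for VEGFA and semaphorin 3A, read 10.62, 10.52, 11.22 and 10.10 in BORA tumours and 5.72, 10.75, 9.85 and 11.65 in EV tumours. EV replicate 1 was the 1 array below the negative control percentile: its difference from the mean of the other EV tumours was -5.03, and 0.373% of all clusters had a larger gap of this kind. The remaining EV tumours spanned the BORA range. The difference therefore went from 1.12 (SE 1.06, limma adjusted p = 0.643) over 8 arrays to -0.13 (95% interval -0.95 to 0.69, adjusted p = 0.895) over 7. NRP2 was also lowest in EV replicate 1, with a difference of -1.97 from the mean of the other EV tumours.

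ANGPT1 was below the negative control percentile in all 8 arrays, at 3.37, 3.22, 3.24 and 3.39 in BORA tumours and 3.84, 3.85, 3.54 and 4.54 in EV tumours. Both groups thus lay under background and no fold is given. The groups did not overlap, with a difference of -0.64 (SE 0.21, limma adjusted p = 0.243) over 8 arrays and -0.67 (SE 0.22, adjusted p = 0.196) over 7. Low values shifted in common: of the 9224 clusters detected in no array, 69.1% had a lower mean in BORA tumours, against 36.3% of the other clusters, and 7.66% were lower without overlap. Their median difference was -0.12. After quantile normalization 54.0% of the undetected clusters were lower, and ANGPT1 was at -0.54 over 8 arrays and -0.56 over 7. In the values as deposited, over 8 arrays, 5.03% of the undetected clusters had a larger difference, in either direction, than the -0.64 of ANGPT1.

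ANGPT2, released by activated endothelium and also made by some tumour cells, varied more than any other member. It read 7.77, 10.29, 10.12 and 10.71 in BORA tumours and 5.60, 11.82, 5.50 and 11.09 in EV tumours. EV replicates 1 and 3 and BORA replicate 1 were under the negative control percentile, and EV replicates 2 and 4 were above every BORA tumour. The range of 6.32 over 8 arrays exceeded that of 99.6% of all clusters. The difference of 1.22 had a 95% interval from -2.05 to 4.49 (limma adjusted p = 0.719), and without EV replicate 1 it was 0.25 (adjusted p = 0.945). Leaving out EV replicate 3 as well turned it to -1.73 (adjusted p = 0.262). Over 7 arrays its sign also turned without BORA replicate 4 (-0.076) and with array quality weights (-0.12).

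ANGPTL4 read 5.97, 9.22, 9.51 and 8.63 in BORA tumours and 6.84, 7.82, 7.35 and 6.32 in EV tumours. BORA replicates 2 to 4 were above every EV tumour and were the only 3 arrays in which ANGPTL4 was detected, and BORA replicate 1 was the lowest of all 8. The difference was 1.25 (SE 0.70, 95% interval -0.32 to 2.82, limma adjusted p = 0.438) over 8 arrays and 1.17 (SE 0.70, adjusted p = 0.465) over 7. As EV tumours were all below the negative control percentile, the ratio of the mean signals, which did not pass, is a bound: BORA was at least 1.26-fold higher with the percentile as the EV level (measured means 8.33 and 7.08). The BORA mean includes replicate 1, which was itself below its percentile. Without BORA replicate 1 the difference was 2.04 (adjusted p = 0.174), and without EV replicate 1 as well it was 1.96 (adjusted p = 0.0620). Leaving out other single arrays gave less in part: the lowest values were 0.86 without BORA replicate 3 over 8 arrays (adjusted p = 0.664) and 0.75 without EV replicate 4 over 7 (adjusted p = 0.716). With the replicate number as a block ANGPTL4 passed over 7 arrays (1.96, adjusted p = 0.0167), in a fit that takes nothing from BORA replicate 1 for the difference.

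BORA replicate 1 thus differed from the other BORA tumours in 3 members. The difference of that tumour from the mean of BORA replicates 2 to 4 was -3.15 for ANGPTL4, -2.92 for VEGFA and -2.60 for ANGPT2. Of all clusters, 0.0395%, 0.0565% and 0.0678% had a larger gap in either direction. The difference was -0.86 for PGF and lay between -0.099 (NRP2) and 0.082 (ANGPT1) for the remaining members.

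Hypoxia-induced genes were low in the same tumour. Of 14 measured members of this list, 14 were lowest in BORA replicate 1 among the BORA tumours, where 25.0% of all clusters were. Of the 14, 12 were also lowest there of all 8 arrays, for which the share of all clusters was not computed. Their gaps to BORA replicates 2 to 4 ran from -4.15 to -0.51 with a median of -1.47, beside 0.015 for all clusters. ADM, the vasodilator adrenomedullin, named after its values were seen, read 9.65 there and 13.94, 13.88 and 13.56 in the other BORA tumours. The mean level of the list was 11.83, 13.71, 13.64 and 13.47 in BORA replicates 1 to 4 and 13.57, 13.35, 12.79 and 12.84 in EV replicates 1 to 4. In EV tumours the 2 did not run alike: ANGPTL4 was undetected in all 4 and below BORA replicates 2 to 4, whereas EV replicate 1 had a list mean within the range of BORA replicates 2 to 4. The oxygen supply, size and viable share of the tumours were not given, and their part in these levels was not tested.

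**Figure D3:**
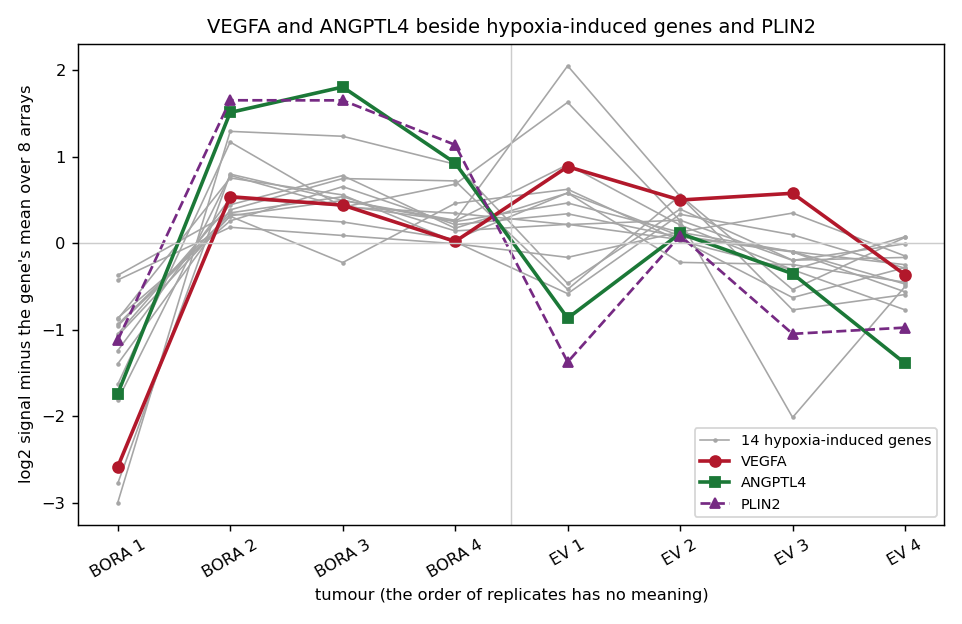
Log2 signal of VEGFA, ANGPTL4, PLIN2 and the 14 measured hypoxia-induced genes in each tumour, each centred on its own mean over the 8 arrays; lines join the values of 1 gene and the order of replicates carries no meaning. VEGFA, ANGPTL4 and all 14 listed genes are at their lowest among BORA tumours in BORA replicate 1, while ANGPTL4 and PLIN2 are higher in BORA replicates 2 to 4 than in any EV tumour.

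Between the groups 0 of 14 hypoxia-induced genes rose and 0 fell over 8 arrays, with a median difference of 0.060, and again 0 over 7 arrays, with a median of 0.093. At an unadjusted limma p under 0.05 there were also 0 in either fit. The members with the smallest p over 8 arrays were MXI1, a MYC antagonist (0.33), NDRG1, a stress-induced differentiation gene (-0.61), KDM3A, a histone demethylase (-0.21), and ANKRD37 (0.22), with limma adjusted p from 0.557 to 0.791. The HIF and PPAR regulators gave 0 of 11 in either direction in both fits, with medians of 0.11 and 0.099, and 1 was higher at an unadjusted limma p under 0.05 over 8 arrays and 0 over 7. EPAS1, which encodes HIF-2 alpha, was at 0.64 (adjusted p = 0.294), HIF3A at -0.25, VHL, the ubiquitin ligase subunit that marks HIF for destruction, at 0.38, and HIF1A at -0.46. HIF3A was detected in no array.

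Genes that PPAR receptors induce in lipid use gave 0 of 5 in either direction in both fits, with medians of 0.27 and 0.34. In each fit 2 were higher at an unadjusted limma p under 0.05, as were 7.37% of all clusters over 8 arrays and 7.70% over 7. PLIN2, a lipid droplet coat protein, read 5.43, 8.21, 8.21 and 7.69 in BORA tumours and 5.18, 6.64, 5.51 and 5.58 in EV tumours (difference 1.66, limma adjusted p = 0.277). It was detected in BORA replicates 2 and 3 alone, so the difference is taken against EV signals under background and no fold is given. Like ANGPTL4 it was higher in BORA replicates 2 to 4 than in every EV tumour and low in BORA replicate 1. ACADVL, a mitochondrial fatty acid oxidation enzyme, was higher without overlap (0.54, adjusted p = 0.228), CPT1A was at 0.27 and FABP4 at -2.41, the last set by EV replicate 1 at 12.41 against 3.58 to 4.25 in the other 7. In the lipoprotein lipase system, on which ANGPTL4 acts, 0 of 3 passed over 8 arrays. At an unadjusted limma p under 0.05, 2 were lower there, against 7.17% of all clusters. Over 7 arrays 1 of 3, LIPG, fell, against 0.0791% of all clusters. LIPG, endothelial lipase, read 10.14, 9.79, 10.28 and 10.09 in BORA and 11.00, 11.13, 10.98 and 11.48 in EV tumours, a difference of -1.07 (adjusted p = 0.0759) over 8 arrays and -1.12 (SE 0.19, adjusted p = 0.0320) over 7. LPL (-0.24) and GPIHBP1, its anchor on capillaries (-0.41), were detected in no array.

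The sequences before 3 of these genes are shown because ANGPTL4, like 12 of the 14 hypoxia-induced genes, was at its lowest of all 8 arrays in BORA replicate 1, and PGF and NRP2 were the detected members whose groups did not overlap in at least 1 comparison. Each is the 250 bases before the gene's start in RefSeq (GRCh38.p14), read in the direction of the gene. The motif searched was the core of the hypoxia response element, ACGTG or GCGTG, on both strands, and capitals mark its matches. ANGPTL4 (chr19:8363905-8364154, plus strand) has 1 match, which begins 234 bases before the start. The PGF window shown (chr14:74955598-74955847, minus strand), 1 of 2 listed starts, has 1 match that begins 162 bases before the start. The window of the other PGF start (chr14:74955765-74956014, not shown) has 0 matches. The NRP2 window (chr2:205682251-205682500, plus strand) has 0.
ANGPTL4: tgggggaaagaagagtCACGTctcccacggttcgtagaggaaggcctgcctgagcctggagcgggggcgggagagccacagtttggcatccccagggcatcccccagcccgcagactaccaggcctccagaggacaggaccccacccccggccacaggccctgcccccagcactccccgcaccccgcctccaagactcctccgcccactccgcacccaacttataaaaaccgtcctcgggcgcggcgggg
PGF: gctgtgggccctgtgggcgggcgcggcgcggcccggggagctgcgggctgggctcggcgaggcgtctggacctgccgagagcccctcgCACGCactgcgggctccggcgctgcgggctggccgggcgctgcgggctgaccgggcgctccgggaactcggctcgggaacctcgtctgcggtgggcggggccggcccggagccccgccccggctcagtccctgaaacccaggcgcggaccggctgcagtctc
NRP2: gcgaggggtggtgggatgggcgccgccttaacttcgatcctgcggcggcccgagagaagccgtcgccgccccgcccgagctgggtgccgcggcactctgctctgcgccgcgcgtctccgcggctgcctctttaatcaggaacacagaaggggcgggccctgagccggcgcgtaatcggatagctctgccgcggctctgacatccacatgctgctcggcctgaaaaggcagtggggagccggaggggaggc

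The table of promoters held 5 of the 9 members, and 4 of these, ANGPTL4, PGF, VEGFB and VEGFC, had a match in at least 1 window. Of 13 hypoxia-induced genes with an entry 11 had one, beside 47.4% of all 27305 genes and 43.2% of all 35116 windows. GC content ran from 68.8% to 82.8% in the members' windows and was not matched to the other genes. Among the members that hold a match, the range over the 8 arrays was 0.55 for VEGFB, 2.39 for VEGFC, 3.54 for ANGPTL4 and 4.26 for PGF. Whether a match had a part in these levels was not tested. A match is a run of letters and was not shown to be a bound site.

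Receptors for these ligands were not detected. FLT1 read 3.17 to 3.49, KDR 3.01 to 3.36, FLT4 4.12 to 5.38, TEK 4.45 to 5.86 and TIE1 5.96 to 6.80, below the negative control percentile in all 8 arrays. Over 8 and 7 arrays 0 of 5 rose and 0 fell, and all 5 differences were below 0 with medians of -0.22 and -0.20. Of all clusters detected in no array, 69.1% over 8 arrays and 68.2% over 7 also had a lower mean in BORA tumours. After quantile normalization the share over 8 arrays was 54.0%. At an unadjusted limma p under 0.05, 0 of 5 differed over 8 arrays and 1, TEK, was lower over 7. The endothelial markers gave 0 of 8 in either direction in both fits, with medians of -0.27 and -0.17. In each fit 6 of 8 differences were below 0, but 5 of the 8 markers were also detected in no array. At that unadjusted p 2 of the 8 were higher and 1 lower over 8 arrays, and 2 higher and 2 lower over 7. Of all clusters 7.37% were higher and 7.17% lower over 8 arrays, and 7.70% and 7.62% over 7. EGFL7, a protein secreted by endothelium and the 1 marker of the 8 detected in every array, was at -0.25 over 8 arrays (limma adjusted p = 0.510) and -0.13 over 7 (0.738). PECAM1, an adhesion molecule of endothelial junctions, read 7.86, 8.24, 7.78 and 8.55 in BORA tumours and 5.90, 6.37, 6.40 and 7.54 in EV tumours, a difference of 1.56 without overlap (limma adjusted p = 0.137). CDH5, VE-cadherin, read 8.30, 8.18, 7.03 and 7.38 against 4.89, 6.56, 4.48 and 5.86 (2.28, adjusted p = 0.129), again without overlap. PECAM1 was detected in 3 of 8 arrays and CDH5 in 2, all of them BORA tumours, so both differences are taken against EV signals under background. VWF (-0.33), and with it CLDN5, ESAM, EMCN and ROBO4, was detected in no array. Vessels in these tumours belong to the mouse host, and human probes can read mouse transcripts only as far as sequences match. In tumour RNA, fewer cells of a type and less transcript per cell cannot be told apart.

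**Figure D4:**
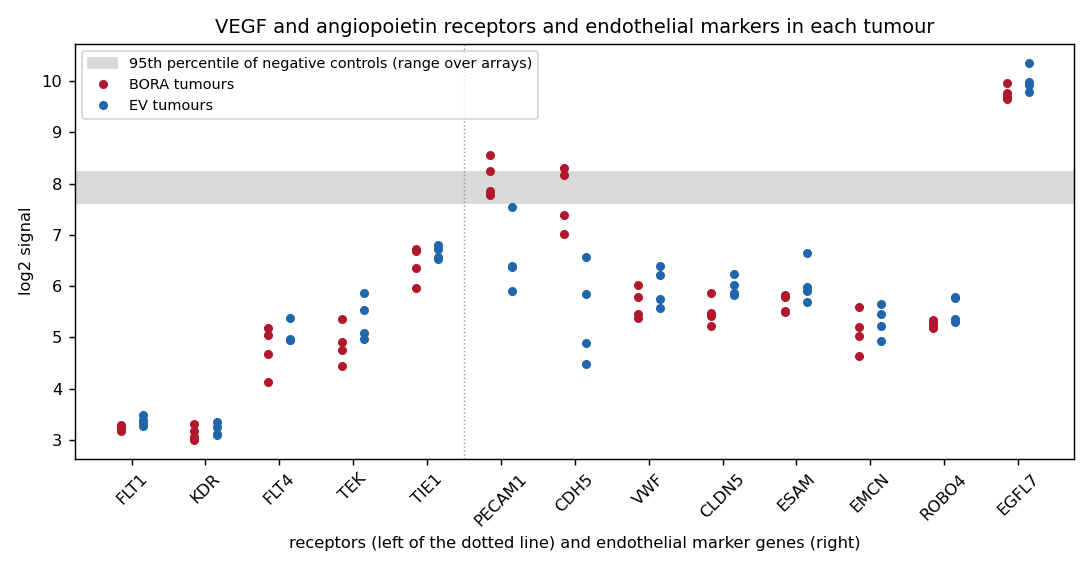
Log2 signal of the 5 VEGF and angiopoietin receptors and 8 endothelial markers, with 1 point for each tumour; the grey band spans the 8 arrays' 95th percentiles of negative controls. All receptors lie below the band, EGFL7 lies above it in every tumour, and PECAM1 and CDH5 are higher in all BORA tumours than in all EV tumours.

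Neuropilins also serve class 3 semaphorins, which signal through plexins. Of 11 measured semaphorin and plexin genes 0 rose and 0 fell in either fit, with medians of 0.12 and 0.14. At an unadjusted limma p under 0.05, 1 was higher and 1 lower over 8 arrays, and 2 higher and 1 lower over 7. SEMA3A, the NRP1 ligand, was at 0.83 (limma adjusted p = 0.355) and PLXND1, a semaphorin receptor, at 0.71 (0.336). SEMA3C read 12.97, 12.91, 13.17 and 12.47 in BORA tumours and 13.29, 12.45, 12.04 and 12.22 in EV tumours, so that it was higher without overlap over 7 arrays alone (0.64, adjusted p = 0.168). SEMA3F, the NRP2 ligand, was also higher without overlap over 7 arrays alone (0.51, limma adjusted p = 0.268), and was detected in 4 of 8 arrays. SEMA3G was lower without overlap (-0.48, adjusted p = 0.282) but detected in no array.

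The other ligands of these families were detected in no array (0 of 6), with 0 rises and 0 falls, medians of -0.095 and -0.17, and 1 lower at an unadjusted limma p under 0.05 in both fits. ANGPTL7 was at -0.51 (limma adjusted p = 0.253), ANGPTL5 at -0.33, ANGPTL6 at -0.18 and ANGPT4 at 0.086. Among angiogenesis inhibitors and VEGF-C processing genes 0 of 9 rose and 0 fell, with medians of -0.21 and -0.056, and in both fits 1 was higher and 1 lower at an unadjusted limma p under 0.05. COL18A1, the collagen that yields endostatin, read 11.34, 11.64, 12.10 and 11.68 in BORA and 9.86, 10.97, 11.10 and 9.94 in EV tumours, higher without overlap (1.22, adjusted p = 0.176). VASH2 (-0.49), THBS2, a thrombospondin (-0.40), and CCBE1, a cofactor of VEGF-C maturation (-0.48), did not pass. VASH2 and THBS2 were detected in no array, and CCBE1 in EV replicate 3 alone. Over 7 arrays CCBE1 was at -0.94 (limma adjusted p = 0.250), the 1 lower gene at the unadjusted p.

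Of the markers of other cell types, PTPRC, the leukocyte phosphatase CD45, read 10.83, 9.68, 10.96 and 10.09 in BORA tumours and 6.91, 12.19, 12.24 and 12.94 in EV tumours, low in EV replicate 1 as NRP1 was. It fell over 7 arrays (-2.07, limma adjusted p = 0.0194), the 1 of 6 macrophage and leukocyte markers to do so, and was at -0.68 over 8 (adjusted p = 0.803). CD68, a macrophage lysosomal protein, was the 1 of the 6 above 0 in either fit (0.38 over 7 arrays). CD163, a scavenger receptor of macrophages, was lower without overlap over 7 arrays (-1.26, adjusted p = 0.136) but detected in 1 array, and CSF1R (-0.47, adjusted p = 0.304) and CD14 were detected in none. The mean level of these 6 was 6.80 to 7.35 in BORA tumours, 7.50 to 8.22 in EV replicates 2 to 4 and 6.53 in EV replicate 1. The 5 fibroblast markers gave 8.44 to 9.59 in EV replicates 2 to 4 and 9.25 to 9.69 in BORA tumours, with 0 passing, COL1A1 at 0.44 over 8 arrays and DCN undetected. COL1A2 was at 0.063 over 8 arrays and -0.17 over 7. LUM, the matrix proteoglycan lumican, had the largest difference of the 5, 1.14 over 8 arrays (limma adjusted p = 0.576). Over 7 it was at 2.07 (adjusted p = 0.112), higher without overlap. PDGFRA was lower without overlap in both fits (-0.35, limma adjusted p = 0.335, and -0.39, adjusted p = 0.307) but detected in no array. Of the 5 fibroblast differences 3 were above 0 over 8 arrays and 2 over 7. At an unadjusted limma p under 0.05, 0 were higher and 1 lower over 8 arrays, and 1 higher and 1 lower over 7. The 4 measured mural markers gave 5.48 to 5.79 in BORA tumours and 5.68 to 6.05 in EV replicates 2 to 4, with 0 passing, ACTA2 at -0.37 over 8 arrays and PDGFRB and CSPG4 undetected. The 5 carcinoma and simple epithelium markers gave 13.80 to 14.07 in BORA tumours, 13.45 to 14.72 in EV replicates 2 to 4 and 12.22 in EV replicate 1, with 0 passing and EPCAM at -0.14 over 8 arrays. All 5 were detected in all 8 arrays. PAX8 was higher without overlap in both fits (1.10, limma adjusted p = 0.199, and 0.79, adjusted p = 0.121). KRT7 was at 0.74 and KRT18 at 0.40 over 8 arrays, and both turned without EV replicate 1, to -0.24 and -0.17. Of the 5 differences 4 were above 0 over 8 arrays and 1 over 7. The mouse host keeps its own macrophages and fibroblasts, and human probes can read mouse transcripts only as far as sequences match. These levels are therefore no measure of host cell content. The part of these markers in the members' values was not tested.

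Genes of nearest pattern were sought for the 7 members whose values ranged over more than 2 log2 units. They were those with the smallest root mean square difference of centred values over the 8 arrays. A low or high array that they share with a member thus follows from this choice and is no separate result. For VEGFA these were HK2, a glycolytic hexokinase (0.45), RORA (0.46) and P4HA1, a collagen prolyl hydroxylase (0.50), where VEGFA itself had an SD of 1.11. For ANGPTL4 they were PLIN2 (0.42), HMOX1, heme oxygenase 1 (0.56), and CXCR4, a chemokine receptor (0.62), against an SD of 1.32. BORA replicate 1 was the lowest BORA array in all 6 of these genes, as their choice by likeness made likely.

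For NRP1 the nearest were ANPEP, an aminopeptidase (0.49), STC1, stanniocalcin 1 (0.54), and DKK3 (0.55), each lowest in EV replicate 1, against an SD of 1.84. For NRP2 they were PRDX3, a mitochondrial peroxiredoxin (0.23), SERPINH1, a collagen chaperone (0.26), and ASS1 (0.26), against an SD of 0.92. For VEGFC they were ZEB1, a repressor of epithelial genes (0.21), MSR1, a scavenger receptor (0.28), and RGS10 (0.31), against an SD of 0.86. PGF lay nearest YBX3 (0.40), BARX2 (0.50) and NECTIN1, an adhesion molecule (0.52), each highest in EV replicate 1, against an SD of 1.36. ANGPT2 lay nearest IL1B (1.15), SFRP1 (1.21) and RGCC (1.22), against an SD of 2.49, the largest of the members.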

How the data were processed

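RNA of 8 tumours, 4 BORA and 4 EV by the sample descriptions, was measured on Affymetrix arrays. The authors deposited 1 value per probe set; the submitters' processing notes name Affymetrix Expression Console. Its version, settings and genome build were not given in the sources used here. Values as deposited span the range of log2 signals and were read as such; the labels give no base, so folds depend on that reading. The design text names the Human Gene 1.0 ST array, whereas the identifiers belong to another human design. Of 24351 rows, 17709 had a single symbol in the supplied annotation (3739 clusters were not listed) and 612 were negative controls. No 2 arrays shared more than 0.0123% of their values. The brightest cluster stood for a gene.

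All named clusters were tested with limma 3.58.1 in R 4.3.3 (lmFit, eBayes, no covariates, no filter), with Benjamini-Hochberg adjustment over all clusters at 0.05, over 8 arrays and without EV replicate 1. The steps were tested on simulated data. Labels name no scan date or batch. Precision is limited by the number of arrays. The members and the 14 lists (98 of 108 entries measured) were chosen with earlier results of these data known. Described were all members, list members past the threshold or else up to 4 with the smallest p over 8 arrays, up to 3 of each marker list and the 3 genes of nearest pattern; others were named after their values were seen. Same-numbered BORA and EV arrays had correlations of their deviations from the group means of -0.11, 0.039, 0.071 and -0.019, so the numbers were not treated as pairs. Alternatives were the replicate block, quantile normalization, median centring, an intensity trend with robust fitting, array weights, leaving out dim clusters, the mean of a gene's clusters and leaving out each array.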

Additional observations from a re-analysis of the deposited data

Results flagged for a closer look

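In groups of 4 tumours, 46 sets of values (members and list means) were screened for a lowest or highest tumour whose gap to the next was past Dixon's critical share of the group's range, and 5 were. Chance gives about 1 in 20. VEGFA in BORA tumours had a share of 0.834 (BORA replicate 1 at 12.98, the next at 15.58). The mean of hypoxia-induced genes in BORA tumours had 0.870 in the same tumour (11.83, the next at 13.47). The mean of squamous epithelium markers in EV tumours had 0.920 (EV replicate 1 at 12.90, the next at 5.09). EV replicate 4 stood apart in the mean of the other family ligands (0.901; 4.77, the next at 4.63, both below the negative controls) and in the fibroblast marker mean (0.945; 8.44, the next at 9.53).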

How the results depend on the processing

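Of 257 differences of members recomputed under the alternatives, 248 kept their sign and 4 passed the threshold. Many of them could not change sign. The intensity trend with robust fitting, leaving out dim clusters and the mean of a gene's clusters returned the main differences. The replicate block over 8 arrays did so too. Leaving out EV replicate 1 from the 8 arrays is the 7-array fit itself. The 248 is thus no measure of robustness. Over 8 arrays 0 members passed under any alternative. Over 7 arrays, 2 members passed with the replicate block (PGF at 2.01, limma adjusted p = 0.0216, and ANGPTL4 at 1.96, adjusted p = 0.0167) and 1 with array quality weights (PGF at 1.92, adjusted p = 0.0499). That block leaves BORA replicate 1 without a partner, so the fit takes nothing from it for the difference, and VEGFA turned to 0.096. Leaving out 1 more array gave 0 to 1 members. ANGPT2 turned to -0.12 with array quality weights over 7 arrays. Leaving out single arrays gave -0.13 to 1.84 for NRP1 over 8 arrays, and over 7 arrays -0.94 to 0.096 for VEGFA, -0.14 to 0.62 for VEGFC, -0.58 to 0.32 for NRP1 and -1.73 to 1.43 for ANGPT2. All clusters past the threshold went from 18 to 1 with the replicate block, 48 with array quality weights, 9 without dim clusters and 1 to 91 without single arrays. Over 7 arrays they went from 91 to 40 without dim clusters and 25 to 152 without single arrays, with 79 under the block. The causes were not tested. ANGPT1 and ANGPTL4 are absent from the fits without dim clusters.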
